A study of Mus musculus with 18 samples.

Results

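Messenger RNA of 10 p53 target genes that act in cell death was followed across mouse embryonic stem cells given DNA-damaging agents. The genes are the death receptors Fas and Tnfrsf10b, the receptor Eda2r, the BH3-only genes Bbc3 and Pmaip1, the caspase platform genes Apaf1 and Pidd1, the nuclease gene Aen, and the membrane protein genes Perp and Ei24. They were chosen by name as known p53 apoptosis targets, with earlier results of these data known. Each of the 10 had 1 probe set that named it alone, out of 19935 genes measured on the arrays, and no filter on low values was applied, so every one of them was tested.

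The study asked which expression changes after adriamycin depend on p53. Levels were read on 18 whole-transcript arrays, each hybridised with total RNA from cells kept in serum medium with leukemia inhibitory factor. R1E is an embryonic stem cell line for which the labels give neither a strain nor a p53 genotype. R1E cells were mock treated, exposed to 0.5 µM adriamycin for 8 hours, or given 25 J/m² of ultraviolet light (UV) and taken at 8 hours, with n = 4 arrays in each group. The p53-/- embryonic stem cells, of 129X1 x 129S1 background, were untreated or exposed to the same 0.5 µM adriamycin for 8 hours, with n = 3 arrays in each group. Adriamycin (doxorubicin) poisons topoisomerase II and breaks DNA, while UV makes bulky pyrimidine lesions that block RNA polymerase on the template. Whether the arrays of a group stem from separate dishes, and how many p53-/- clones were used, is not in the labels, so p-values measure only the spread between these arrays, which may be technical.

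The p53 protein is a transcription factor that DNA damage stabilises, and part of its target set can kill the cell. Fas and Tnfrsf10b are cell-surface receptors with a death domain, which recruits the adaptor FADD and caspase-8 once ligand binds. PUMA (Bbc3) and NOXA (Pmaip1) bind the guardians of mitochondria in the BCL2 family and so favour release of cytochrome c, which APAF1 assembles with caspase-9 into the apoptosome. PIDD1 with RAIDD (Cradd) forms the platform that activates caspase-2.

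All values below are log2 intensities as the authors deposited them, and a change is a difference of group means on that scale. The R1E and p53-/- arrays were normalized separately, so levels were tested only within a set. Array medians lay between 5.30 and 5.61. Of 12 embryonic stem cell markers, 11 lay above the median of all genes in each R1E group and 12 in each p53-/- group. The mean level over 9 fibroblast markers ranged from 5.07 to 5.30 on the R1E arrays and from 6.82 to 7.17 on the p53-/- arrays, and over 10 endoderm markers from 5.62 to 6.05 and from 6.92 to 7.36. Col1a1, a fibroblast collagen, had a mean of 6.80 ± 0.15 (SD, n = 4) in R1E mock and 9.93 ± 0.24 (SD, n = 3) in untreated p53-/- cells. None of these fibroblast or endoderm markers passed the test after adriamycin in p53-/- cells. Of all genes, only 0.015% were called higher and 0.0803% lower there. The median log2 change in that comparison was -0.22 for the fibroblast and -0.22 for the endoderm markers, against 0.06 over all genes. The part of this marker signal in the differences between the sets was not tested. In whole cultures, fewer cells of a type and less RNA per cell cannot be told apart.

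Promoter windows of 7 of the genes (Fas, Bbc3, Apaf1, Pidd1, Aen, Ei24 and Eda2r), each from 250 bases before to 50 after an annotated start, were searched for the p53 consensus decamer, the 10-base unit of a p53 site. The decamer is its own reverse complement in consensus, so the search covers both strands. An exact decamer lay in the windows of Ei24 and Aen and in 8.36% of all 32851 windows in the table. A full site was counted as a pair of decamers up to 13 bases apart with at most 2 mismatches. None of the 7 genes had one, against 4.09% of all windows. A match describes letters and not a bound site, and p53 sites outside these windows were not searched. The stretches below, from RefSeq assembly GRCm38.p6, are shown because they hold these decamers (in capitals) or belong to the genes with the largest adriamycin-over-UV differences. They are given 5′ to 3′ on the gene's strand.

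Ei24, bases 60 to 1 before the start, chr9:36797335-36797394, minus strand: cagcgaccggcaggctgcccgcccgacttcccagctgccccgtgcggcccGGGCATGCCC
Aen, the first 30 transcribed bases of its upstream start, chr7:78895927-78895956, plus strand: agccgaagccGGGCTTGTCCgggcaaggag
Fas, bases 60 to 1 before the start, chr19:34290599-34290658, plus strand: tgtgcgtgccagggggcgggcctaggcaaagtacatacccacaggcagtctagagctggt
Apaf1, bases 60 to 1 before the start, chr10:91082744-91082803, minus strand: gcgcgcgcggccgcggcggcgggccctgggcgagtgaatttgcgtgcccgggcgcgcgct

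Adriamycin raised all 10 genes in R1E cells (limma, Benjamini-Hochberg adjusted p below 0.05 over 19935 genes), where 22.1% of all genes were called higher and 25.6% lower. With arrays centred on their medians that split was 16.5% and 48.4%. On every one of the 10 probe sets, each adriamycin array lay above each mock array, which held for 20.8% of all genes. The rises ran from 1.48-fold for Ei24 to 9.07-fold for Fas, with a median log2 change of 1.23 against -0.02 over all genes. At least 2-fold rises were found for 6 of the 10 and for 3.91% of all genes. The genes are known p53 targets and were chosen with earlier results of these data known. The count therefore describes them and is no independent evidence about p53.

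**Figure D1:**
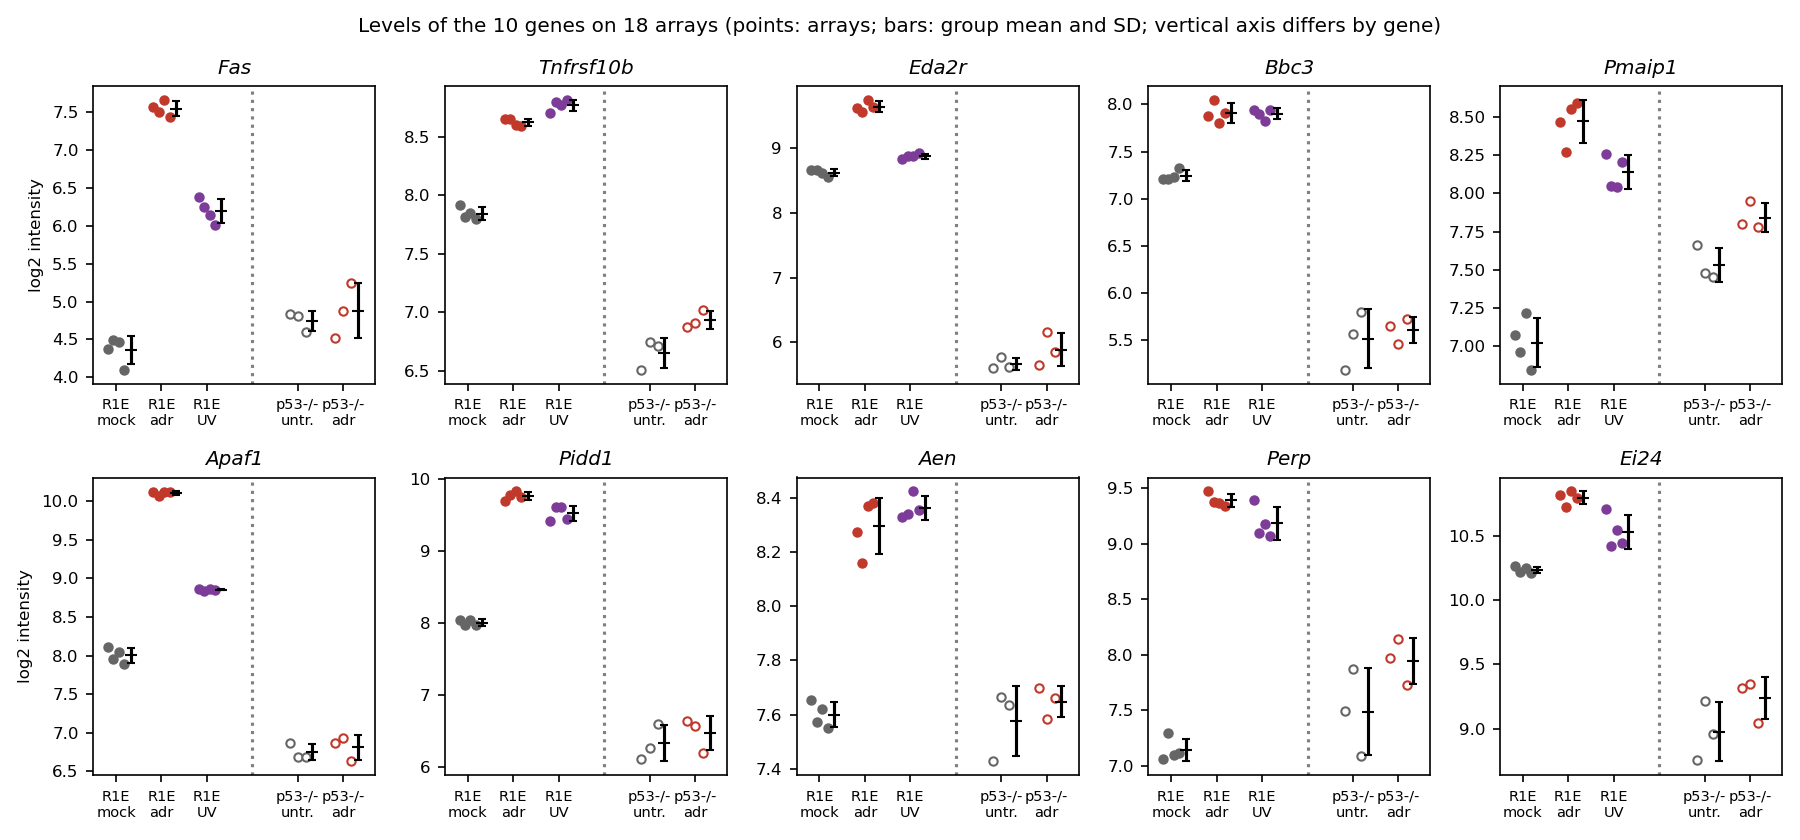
Log2 intensity of each gene on all 18 arrays, with 1 panel per gene and its own vertical axis. Points are arrays (filled for R1E, open for p53-/-), bars give the group mean and SD, and the dotted line separates the R1E from the p53-/- arrays, which were normalized separately. In R1E every treated array lies above every mock array for all 10 genes, while in p53-/- cells the groups overlap for all but Tnfrsf10b and Pmaip1.

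The receptors differed widely in their response. Fas, the receptor for FAS ligand, read 4.38, 4.49, 4.47 and 4.10 on the mock arrays and 7.57, 7.50, 7.66 and 7.43 after adriamycin. No treated array came near the mock range, and the rise of 9.07-fold (log2 change 3.18 ± 0.09 SE, adjusted p = 7.22e-14) ranked at position 8 among all genes. The mock levels of Fas all lay below every array median, so the size of its rise rests on a low baseline. Tnfrsf10b, the mouse TRAIL receptor, read 7.92, 7.82, 7.85 and 7.79 in mock cells and 8.66, 8.65, 8.61 and 8.59 after adriamycin, a rise of 1.72-fold (0.78 ± 0.05 SE, adjusted p = 5.55e-10). Eda2r encodes the receptor for the A2 form of ectodysplasin and has no death domain. It rose 2.02-fold (1.02 ± 0.05 SE, adjusted p = 6.08e-11), from a mock range of 8.55 to 8.66 to a range of 9.55 to 9.75.

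Of the BH3-only genes, Pmaip1 rose more than Bbc3. Pmaip1 read 7.08, 6.96, 7.22 and 6.85 in mock cells and 8.47, 8.27, 8.55 and 8.59 after adriamycin, which is 2.73-fold higher (1.45 ± 0.08 SE, adjusted p = 3.9e-10). Bbc3 moved from between 7.21 and 7.33 to between 7.80 and 8.05, a rise of 1.59-fold (0.67 ± 0.06 SE, adjusted p = 4.8e-08).

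Both caspase platform genes rose strongly. Apaf1 read 8.11, 7.95, 8.05 and 7.90 on the mock arrays and 10.12, 10.07, 10.12 and 10.12 after adriamycin. This 4.31-fold rise (2.11 ± 0.05 SE, adjusted p = 1.1e-14) had a 95% confidence interval of 4.00 to 4.65-fold. Pidd1 rose 3.37-fold (1.75 ± 0.06 SE, adjusted p = 2.41e-13), from a mock range of 7.96 to 8.04 to a range of 9.68 to 9.83.

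Perp, a tetraspan membrane protein of desmosomes that p53 uses as a death effector, had the largest rise after that of Fas. It read 7.06, 7.29, 7.09 and 7.12 in mock cells and 9.48, 9.38, 9.37 and 9.34 after adriamycin, or 4.76-fold higher (2.25 ± 0.07 SE, adjusted p = 2.23e-13). Aen, a nuclease that degrades DNA in dying cells, rose 1.62-fold (0.70 ± 0.06 SE, adjusted p = 1.66e-08). Ei24, an endoplasmic reticulum protein first found as an etoposide-induced gene, rose 1.48-fold (0.56 ± 0.06 SE, adjusted p = 6.03e-07), from between 10.21 and 10.26 to between 10.73 and 10.85.

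UV also raised all 10 genes in R1E cells, where 22.6% of all genes were called higher and 21.2% lower (15.6% and 28.5% with centring). Every UV array lay above every mock array for each of the 10, against 20.6% of all genes. The adriamycin and UV comparisons share the same 4 mock arrays, so their agreement is not independent. The median change was 0.89 against 0.03 over all genes, and 4 of the 10 rose at least 2-fold, as did 1.87% of all genes.

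After UV the largest rise was no longer that of Fas. Perp read 9.40, 9.09, 9.18 and 9.07, a rise of 4.13-fold over mock (log2 change 2.05 ± 0.07 SE, adjusted p = 3.09e-12). Fas read 6.38, 6.24, 6.14 and 6.0 and was 3.56-fold higher than mock (1.83 ± 0.09 SE), and Pidd1, between 9.41 and 9.61, was 2.86-fold higher (1.52 ± 0.06 SE). Pmaip1 rose 2.17-fold, Tnfrsf10b 1.90-fold, Apaf1 1.81-fold, Aen 1.70-fold and Bbc3 1.58-fold. The smallest rises were those of Ei24, at 1.23-fold (0.29 ± 0.06 SE, adjusted p = 0.000691), and Eda2r, at 1.19-fold (0.25 ± 0.05 SE, adjusted p = 0.000692). Tested against a change of 1.2-fold instead of 0, both of these lost the call.

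**Figure D2:**
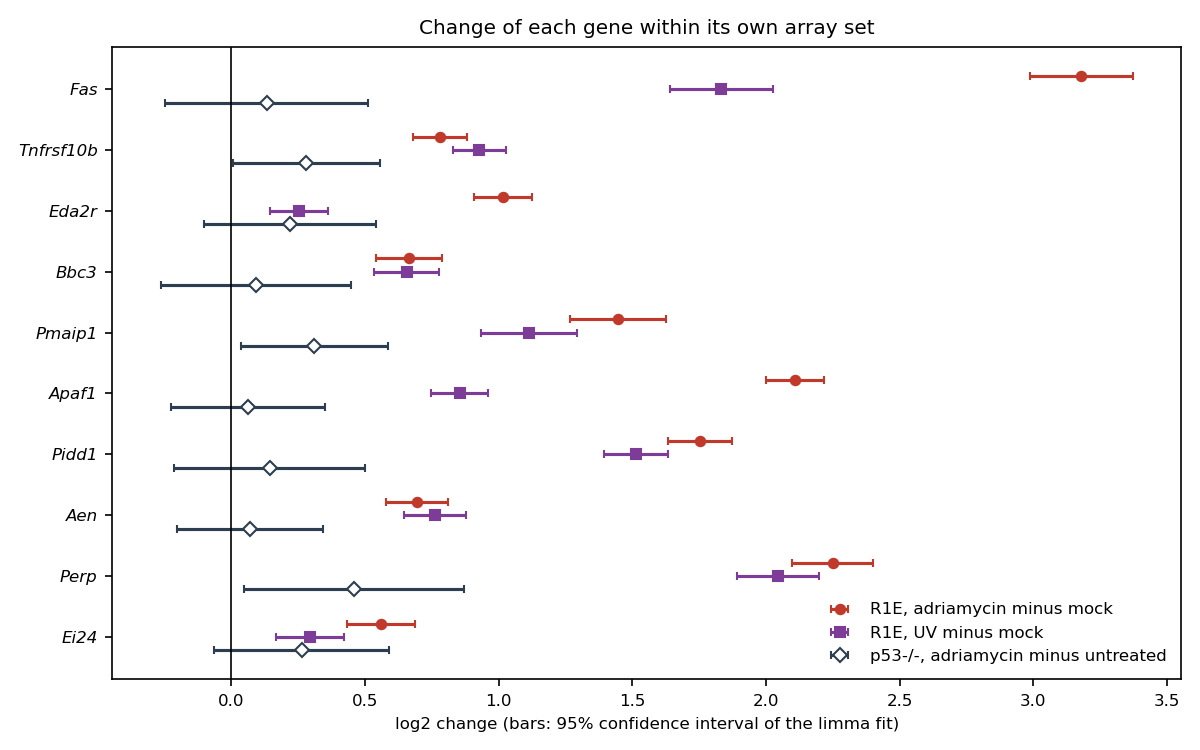
Log2 change of each gene within its own array set, with 95% confidence intervals. Circles show adriamycin minus mock and squares UV minus mock in R1E (n = 4 arrays per group), and open diamonds show adriamycin minus untreated in p53-/- cells (n = 3). All R1E intervals lie above 0, while the p53-/- intervals of 7 genes include 0 and those of Tnfrsf10b, Pmaip1 and Perp lie just above it.

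Adriamycin and UV were compared directly to see which genes responded more to which agent. Of the 10 genes 7 were higher after adriamycin, 1 was lower and 2 were not called, where 19.8% of all genes were higher and 22.2% lower (17.1% and 32.2% with centring). Fas was 2.55-fold higher after adriamycin than after UV (log2 difference 1.35 ± 0.09 SE, adjusted p = 6.87e-09). Apaf1, at 10.07 to 10.12 against 8.84 to 8.87, was 2.39-fold higher (1.25 ± 0.05 SE, adjusted p = 3.49e-11), and Eda2r, at 9.55 to 9.75 against 8.83 to 8.92, was 1.70-fold higher (0.76 ± 0.05 SE, adjusted p = 6.87e-09). These 3 genes stood apart from the others, whose differences lay between -0.15 and 0.33.

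The remaining differences between the agents were small. Pmaip1 was higher after adriamycin by 0.33 ± 0.08 SE (adjusted p = 0.00458), Ei24 by 0.27 ± 0.06 SE (adjusted p = 0.00173) and Pidd1 by 0.24 ± 0.06 SE (adjusted p = 0.0025). Perp was higher by 0.21 ± 0.07 SE (adjusted p = 0.0299) with overlapping arrays. That call ended without adriamycin replicate 1 or UV replicate 2, 3 or 4 (adjusted p from 0.0591 to 0.0952) and with arrays centred on their medians (adjusted p = 0.0853). Tnfrsf10b went the other way, 8.59 to 8.66 after adriamycin against 8.70 to 8.81 after UV (-0.15 ± 0.05 SE, adjusted p = 0.0192). It lost the call without adriamycin replicate 4 (adjusted p = 0.0517) or UV replicate 4 (adjusted p = 0.0514). Bbc3 and Aen were not called, with 95% confidence intervals of the log2 difference of -0.11 to 0.13 and -0.18 to 0.05.

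The share of the adriamycin response that UV reached therefore differed from gene to gene. The UV log2 change was 24.8% of the adriamycin change for Eda2r, 40.5% for Apaf1, 52.4% for Ei24 and 57.6% for Fas. For the other 6 genes it lay between 77.1% and 118.8%. The genes with the 4 lowest shares were also the 4 with the longest span from first to last annotated base in GRCm38.p6. Apaf1 spans 93.4 kb, Eda2r 43.4 kb, Fas 37.1 kb and Ei24 18.2 kb, and the other 6 genes span 7.0 to 16.9 kb. Within those 6 the order ran the other way. From the shortest to the longest the shares were 77.1% (Pmaip1), 86.4% (Pidd1), 98.7% (Bbc3), 90.9% (Perp), 109.5% (Aen) and 118.8% (Tnfrsf10b), so longer genes had the higher shares apart from the neighbours Bbc3 and Perp.

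The same description was made for all 2026 genes with a known span that were called higher after adriamycin in R1E with a log2 change of at least 0.5. The median UV share was 79.4% for 773 genes under 20 kb, 60.2% for 614 genes of 20 to 50 kb and 27.3% for 639 genes over 50 kb. Apaf1 lay above the median of its span class, Eda2r and Fas lay below that of theirs, and Ei24 lay below the median of the shortest class. Shares above 100%, as for Aen and Tnfrsf10b, were found for 156 of the 773 genes under 20 kb and for 25 of the 614 genes of 20 to 50 kb.

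**Figure D3:**
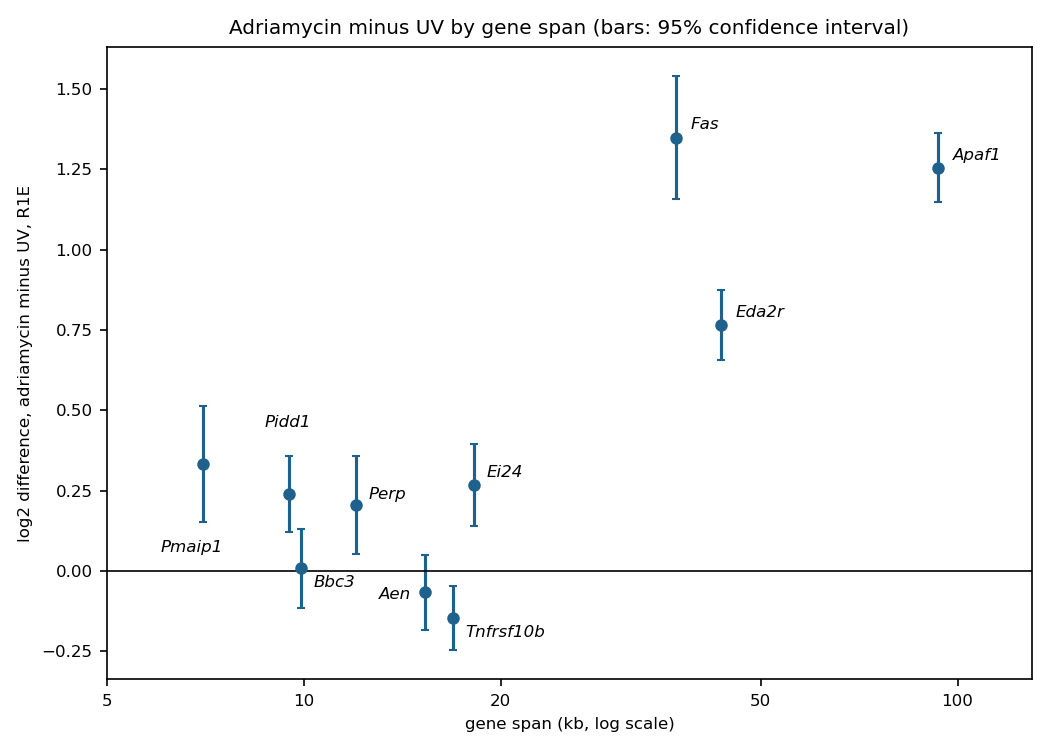
Log2 difference between adriamycin and UV in R1E cells against gene span on a log axis, 1 point per gene with its 95% confidence interval. Apaf1, Eda2r and Fas, with spans from 37.1 to 93.4 kb, lie at 0.76 to 1.35, and the 7 genes of 7.0 to 18.2 kb lie between -0.15 and 0.33.

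In p53-/- cells none of the 10 genes was called after adriamycin (limma, Benjamini-Hochberg). Few genes were called at all in this set, 0.015% higher and 0.0803% lower, so the missing calls are read with their intervals. At an unadjusted p below 0.05, 3 of the 10 genes and 11.6% of all genes passed. With a trended and robust prior 2 of the 10 did.

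Fas read 4.84, 4.81 and 4.60 in untreated p53-/- cells and 4.52, 4.88 and 5.25 after adriamycin, all below every array median. The groups overlapped, and the log2 change of 0.13 ± 0.17 SE had a 95% confidence interval of -0.25 to 0.51. Apaf1 read 6.87, 6.69 and 6.68 against 6.87, 6.93 and 6.63, a log2 change of 0.06 with an interval of -0.23 to 0.35. For both genes the upper bound lay far below the R1E changes of 3.18 and 2.11.

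The intervals of 5 more genes included 0. Pidd1 changed by 0.14 (-0.21 to 0.50) and Bbc3 by 0.09 (-0.26 to 0.45) on the log2 scale. Aen changed by 0.07 (-0.20 to 0.34), Eda2r by 0.22 (-0.10 to 0.54) and Ei24 by 0.26 (-0.06 to 0.59). The interval of Ei24 reached past its R1E change of 0.56.

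The unadjusted calls were those of Perp, Pmaip1 and Tnfrsf10b, each with a higher mean after adriamycin. Perp read 7.50, 7.87 and 7.09 untreated and 7.97, 8.14 and 7.72 treated, with overlapping groups and a log2 change of 0.46 ± 0.19 SE (95% confidence interval 0.05 to 0.87, adjusted p = 0.382). Pmaip1 read 7.66, 7.48 and 7.46 against 7.80, 7.95 and 7.78, without overlap (log2 change 0.31 ± 0.13 SE, interval 0.04 to 0.59, adjusted p = 0.373). Tnfrsf10b read 6.50, 6.74 and 6.71 against 6.88, 6.91 and 7.02, also without overlap (log2 change 0.28 ± 0.13 SE, interval 0.01 to 0.56, adjusted p = 0.421). These were the 2 of the 10 genes whose treated arrays all lay above the untreated ones, which held for 12.3% of all genes. All 10 mean changes were above 0, as were those of 62.6% of all genes, and their median was 0.18 against 0.06 over all genes. With each array centred on its median, the p53-/- changes were lower by a constant, and those of Bbc3, Apaf1 and Aen were just below 0.

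The adriamycin changes of the lines were then set against each other in 1 model with a separate weight for each set. The change was larger in R1E for 9 of the 10 genes, where 10.1% of all genes had a more positive and 11.1% a more negative change in R1E. The same comparison from separate fits with their variances added called the same number, 9 of the 10, with 10.4% of all genes called higher. The SE and adjusted p that follow come from the weighted model. On simulated arrays it made more false calls than its nominal rate. Its SE for Tnfrsf10b, 0.12, lay below the SE of the p53-/- change alone, 0.13, so these SE and adjusted p may be too small. The difference was 3.05 ± 0.23 SE on the log2 scale for Fas (adjusted p = 2.53e-09), 2.05 ± 0.13 for Apaf1 (adjusted p = 2.28e-10), 1.79 ± 0.20 for Perp (adjusted p = 7.23e-07) and 1.61 ± 0.16 for Pidd1 (adjusted p = 1.36e-07). It was 1.14 ± 0.19 SE for Pmaip1, 0.80 ± 0.14 for Eda2r, 0.63 ± 0.13 for Aen, 0.57 ± 0.16 for Bbc3 and 0.50 ± 0.12 for Tnfrsf10b, with adjusted p from 0.000138 to 0.0131. The call for Bbc3 ended without p53-/- adriamycin replicate 2 (adjusted p = 0.0691).

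Ei24 was the exception. Its difference of 0.30 ± 0.16 SE did not pass the test (adjusted p = 0.212), and the 95% confidence interval of -0.03 to 0.63 includes both 0 and the full R1E change of 0.56. The p53 genotype of R1E is not in the labels, and p53 status, line and array processing cannot be told apart in these differences. UV was not given to p53-/- cells in the samples used here, so no such comparison exists for UV.

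The partners of these proteins moved in both directions in R1E. The counts that follow are set against all genes, of which 22.1% rose and 25.6% fell after adriamycin and 22.6% rose and 21.2% fell after UV. Of 23 other death receptors, decoys and ligands, 7 rose and 8 fell after adriamycin (30.4% and 34.8%), led by Ngfr (the p75 neurotrophin receptor, which fell by 0.95 on the log2 scale), Tnfrsf1a (the TNF receptor with a death domain, up 1.70-fold) and Tnfrsf21 (fell by 0.70). The ligand of Fas was among those not called. Fasl read 3.35 to 3.53 in mock cells and 3.36 to 3.48 after adriamycin, and Tnfsf10, the ligand of Tnfrsf10b, read 2.98 to 3.18 and 2.96 to 3.17. These levels all lay below every array median. After UV 9 of the 23 rose and 3 fell (39.1% and 13%), with a median change of 0.13 against 0.03 over all genes.

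Among 21 adaptors and regulators of death receptors, 6 rose and 9 fell after adriamycin (28.6% and 42.9%), and 7 rose and 7 fell after UV (33.3% each). Faim2, an inhibitor of Fas-driven death, rose 4.26-fold (log2 change 2.09 ± 0.07 SE, adjusted p = 3.75e-13). Mlkl, the pore-forming effector of necroptosis, rose 3.56-fold and the deubiquitinase gene Cyld 2.32-fold. The largest falls in this list were those of Faim (log2 change -0.48), Birc3 (-0.45) and Birc2 (-0.39). Fadd, the adaptor of Fas, rose 1.19-fold, while Casp8 was not called, at 0.01 ± 0.06 SE. The mean level of Casp8 was low, 3.99 in mock and 3.99 in adriamycin-treated cells, below every array median.

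Of 20 caspase and apoptosome genes 4 rose and 8 fell after adriamycin (20% and 40%), and 6 rose and 5 fell after UV (30% and 25%). The shares that rose after adriamycin and fell after UV were near those of all genes. Casp14, a caspase of epidermal differentiation, rose 6.23-fold, and Dffb, the caspase-activated DNase, rose 4.96-fold (log2 change 2.31 ± 0.06 SE, adjusted p = 1.28e-14). Dffa, the inhibitor and chaperone of that DNase, rose 1.40-fold. The direct partners of APAF1 and PIDD1 did not rise with them: Casp9 was at -0.10 and Cycs, encoding cytochrome c, at -0.10, both not called, Casp2 fell by 0.42 and Cradd was not called at -0.07. These partners were named for their roles.

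Among 17 other BCL2 family and BNIP genes, which include the guardians and pore-formers as well as further BH3-only genes, 3 rose and 5 fell after adriamycin (17.6% and 29.4%) and 4 rose and 5 fell after UV (23.5% and 29.4%). The shares after adriamycin were near those of all genes. Bnip3 fell by 1.07, while Bcl2l10 rose 1.79-fold and the BH3-only gene Bik 1.74-fold. Mcl1, the guardian that NOXA binds, rose 1.26-fold, Bcl2l1 (BCL-XL) fell by 0.34 and the pore-former gene Bak1 fell by 0.49.

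Another 23 genes linked to p53 and death behaved more like the 10, with 18 higher and 4 lower after adriamycin (78.3% and 17.4%) and a median change of 0.80. This list was drawn up with results of these data known, so its direction is no independent evidence. Trp73, the p53 relative, rose 5.40-fold, Ppp1r13l, which encodes the p53 inhibitor iASPP, rose 4.47-fold and Phlda3, an inhibitor of AKT, rose 3.37-fold, while Peg3 fell by 0.54. After UV 16 of them rose and 1 fell (69.6% and 4.35%). The difference between the lines was called for 16 with the larger change in R1E and for 3 with the smaller (69.6% and 13%). Of all genes 10.1% and 11.1% were called so. The share with the smaller change in R1E was thus near that of all genes. Of 12 relatives or junction partners of Perp, Aen and Ei24, 4 rose and 4 fell after adriamycin (33.3% each), led by Emp1 (fell by 2.63), Emp3 (up 2.32-fold) and Tmem47 (fell by 0.61). In UV-treated cells 3 of the 12 rose and 4 fell (25% and 33.3%). In p53-/- cells no gene of these 6 lists was called after adriamycin (limma). Only 0.015% of all genes were called higher and 0.0803% lower there.

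**Figure D4:**
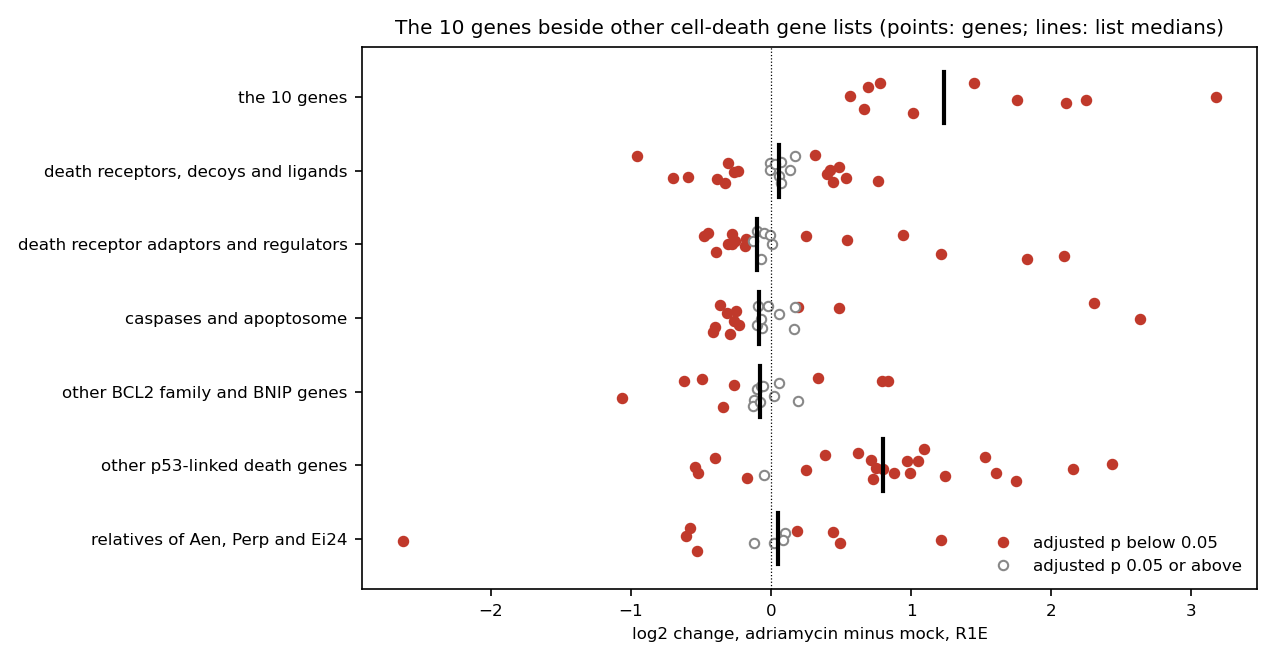
Log2 change after adriamycin in R1E for the 10 genes and for 6 lists of related genes, 1 point per gene, filled red where the adjusted p was below 0.05, with a line at each list's median. All 10 genes lie at 0.56 or above with a median of 1.23, the other p53-linked death genes have a median of 0.80, and the medians of the remaining lists lie between -0.10 and 0.06.

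Over all 18 arrays the genes most like Fas were sought by the root mean square difference of their values, each array set against the control mean of its own set. The 5 nearest were Arhgef33 (0.20 on the log2 scale), Krt5 (0.21), Cd109, Cyyr1 and Sec14l5 (each 0.27). Krt5 encodes keratin 5 of basal epithelium, and its log2 changes were 3.05 after adriamycin and 1.60 after UV in R1E and 0.05 after adriamycin in p53-/- cells. Arhgef33 had changes of 2.95, 1.80 and 0.00 in the same order. Among the other 9 genes followed here, Perp came nearest to Fas, at 0.52 (position 69 among all genes, none left out), and Ei24 was farthest, at 1.45.

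Most markers of the stem cell state fell in treated R1E cells, while the 10 genes rose. Of the 12 embryonic stem cell markers 11 fell after adriamycin in R1E and none rose, with a median change of -0.52, and 8 fell after UV, with a median of -0.28. The shares that fell were 91.7% and 66.7%, against 25.6% and 21.2% of all genes. With arrays centred on their medians, 48.4% and 28.5% of all genes fell, but the marker shares were not recomputed with centring. In p53-/- cells none of the 12 was called, where only 0.015% of all genes were called higher and 0.0803% lower. The median change of the 12 was 0.03 there, against 0.06 over all genes. Of the endoderm markers 4 of 10 fell after adriamycin and 3 after UV (40% and 30%), and none rose. Of 8 neural markers 3 fell and none rose after adriamycin (37.5% fell), and 2 fell and 1 rose after UV (25% and 12.5%). After adriamycin 2 rose and 2 fell of 10 epithelial and trophectoderm markers (20% each) and of 7 mesoderm markers (28.6% each). Of 9 fibroblast markers 2 rose and 1 fell (22.2% and 11.1%). Of all genes 22.1% rose after adriamycin and 22.6% after UV. The epithelial, mesoderm and fibroblast shares that rose were near that of all genes. The part of the marker changes in the rises of the 10 genes was not tested.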

How the data were processed

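The authors deposited log2 intensities, with 1 value for each probe set on each array. R1E arrays were processed, per the submitters' processing notes, in Affymetrix Expression Console 1.1 by an unnamed algorithm, and p53-/- arrays with RMA in Partek 6.4. Of 28853 probes, 28815 had values on all 18 arrays and 21780 had 1 gene symbol in the platform annotation. The probe with the highest mean was kept per gene. The genome build behind the array's probes was not used here, and gene spans and promoter sequences come from RefSeq (GRCm38.p6) by Entrez ID.

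Each comparison was a linear model in limma 3.58.1 under R 4.3.3, with lmFit and eBayes, without further normalization, and adjusted by Benjamini-Hochberg over 19935 genes. The R1E fit used 12 arrays, the p53-/- fit 6, and the difference of adriamycin changes all 18 with arrayWeights per set. Scripts were tested on simulated arrays. There the weighted fit of the difference made more false calls than its nominal rate, and separate fits with added variances made fewer, so both are given.

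The 10 genes, the related gene lists and the tests were chosen with earlier results of these data known. Named list genes were the 3 largest called changes per list and 1 against the majority, besides partners named for their roles. For the adaptors and regulators of death receptors the 3 largest falls were named as well. Alternatives covered normalization, centring, a dim-gene filter, probe choice, the prior, a replicate block, a fold threshold, the arrays or weights in the fit, and each array left out. A rescaling of the p53-/- values was added after seeing the data.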

Additional observations from a re-analysis of the deposited data

Results flagged for a closer look

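The adriamycin change differed between the lines, by the test of the difference itself, for 9 of the 10 genes. Of all genes, 10.1% had a more positive and 11.1% a more negative change in R1E. The weighted fit behind these calls made more false calls than its nominal rate on simulated arrays. Line, p53 status and array processing cannot be told apart here. On the log2 scale R1E exceeded p53-/- cells by 3.05 for Fas, 2.05 for Apaf1, 1.79 for Perp, 1.61 for Pidd1, 1.14 for Pmaip1, 0.80 for Eda2r, 0.63 for Aen, 0.57 for Bbc3 and 0.50 for Tnfrsf10b.

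Single arrays stood away from the other 3 of their group in 2 of the 30 gene and group sets examined, where chance gives about 1 in 20. Bbc3 read 7.33 on R1E mock replicate 4, against 7.21 to 7.23 on the other mock arrays. Apaf1 read 10.07 on R1E adriamycin replicate 2, against 10.12 on each of the others. Both gaps are small beside the treatment changes of these genes.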

How the results depend on the processing

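The 10 calls after adriamycin in R1E held under all 20 alternatives. Centring each array on its median lowered every R1E adriamycin change by 0.125 on the log2 scale and left the 10 genes called. Testing against a 1.2-fold change left 3 genes called for adriamycin against UV (Fas, Apaf1 and Eda2r) in place of 8. It also left 8 called for UV and 6 for the difference between the lines. Leaving out 1 array at a time gave 10 called genes for adriamycin and for UV, 6 to 8 for adriamycin against UV, 0 in p53-/- cells and 8 to 9 for the difference between the lines. With the replicate block the counts stayed at 10, 10, 8, 0 and 9. Same-numbered R1E arrays did not deviate together (correlations from -0.142 to 0.163), and 1 of 12 correlated best with its own number. In p53-/- cells the correlations ran from -0.103 to 0.191, with a median of 0.088 against 0.0015 for other pairs. There 4 of 6 arrays correlated best with their own number, and 3 same-numbered pairs are too few to settle whether they deviated together. With the p53-/- values multiplied by 1.155, to match the R1E spread, 9 were called.

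Uncalled changes near 0 turned sign. For adriamycin against UV, Bbc3 was at -0.040 with centring and between -0.039 and 0.045 with 1 array left out (-0.017 without UV replicate 3). In p53-/- cells centring gave -0.000723 for Bbc3, -0.029 for Apaf1 and -0.022 for Aen, and quantile normalization gave -0.010 for Bbc3. With 1 array left out, Bbc3 ranged from -0.076 to 0.233 and Aen from -0.00476 to 0.115, both lowest without untreated replicate 1, and Fas from -0.051 (without adriamycin replicate 3) to 0.315. With dim genes left out, Fas and Bbc3 were not tested in p53-/- cells. The number of arrays, 3 per group, limits the precision in that set.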
